A study of Mus musculus with 6 samples.

Results

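The interleukin-6 family was followed here as 10 genes in the lung, chosen by symbol from the 49568 gene symbols of the deposited count table: the ligand genes Il6, Il11, Osm and Lif, the receptor genes Il6ra, Osmr, Lifr and Il6st, and the intracellular genes Stat3 and Socs3. The 10 symbols were in the table, and 9 of them passed edgeR's filter on low counts (filterByExpr), Il6 being the exception. Whole lungs of 3 TNF-Tg mice (called TNF+) and 3 WT littermates (called TNF-) were sequenced as poly(A) RNA, with 1 library per mouse. The mice were females on a C57BL/6 background and 4 months old. TNF+ mice carry a human TNF transgene that is overexpressed, a chronic model of erosive arthritis and pulmonary vascular disease. The promoter that drives the transgene is not given in the sources used here.

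Cytokines of this family share a signal-transducing receptor chain, gp130, which is encoded by Il6st. Interleukin-6 and interleukin-11 each bind a private receptor subunit before they engage gp130, whereas leukemia inhibitory factor and oncostatin M signal through pairs of gp130 with the Lifr or Osmr chain. The receptors activate Janus kinases and the transcription factor Stat3, and Stat3 induces Socs3, which binds gp130 and shuts the signal off. In the lung, interleukin-6 and oncostatin M are known for inducing acute phase and inflammatory genes in epithelium, endothelium and fibroblasts.

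The libraries held between 25396923 and 32529408 counts, and the TNF+ totals lay under the TNF- totals. Detection was set at 3 counts, which correspond to 0.0882 to 0.131 CPM after TMM scaling and cover counting error only. Of 19199 genes tested, 47.4% passed an adjusted p of 0.05 (quasi-likelihood test of edgeR, Benjamini-Hochberg adjustment across the tested genes), 24% higher and 23.4% lower in TNF+ lungs, so the genotype contrast was broad. Normalized counts were brought to a common depth by the TMM-scaled totals, and in 58.7% of the tested genes they did not overlap between the groups. The mouse Tnf gene had 106, 213 and 405 counts in TNF+ lungs against 16, 14 and 35 in TNF- lungs. Tnf was higher by 3.62 on the log2 scale (standard error, SE, 0.46, adjusted p = 0.000471). The human transgene is not a row of the mouse table, and whether its reads are among those of Tnf was not tested. By single genes, a pair of libraries stood apart. In TNF+ replicate 1 the single gene Gm42418 held 5.22% of the counts, against at most 0.274% elsewhere, and in TNF- replicate 1 the squamous keratin Krt4 had 56570 counts, against at most 8 elsewhere. For the called members, Il6 and Lif, values without these lungs are given beside the results.

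Of the 9 members tested, 5 passed the threshold, against the background of 47.4% of all genes. Osm, Osmr and Socs3 rose in TNF+ lungs, and Il6st and Lifr fell. Lif, Il11, Il6ra and Stat3 did not pass. The median log2 fold change of the 9 tested members was 0.14, and that of all tested genes was 0.03. The groups did not overlap in 5 of the 9 members, against 58.7% of all genes. Without both TNF+ replicate 1 and TNF- replicate 1, Osm and Il6st were the 2 members that still passed. In the same fit the calls over all genes went from 9096 to 6064.

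**Figure D1:**
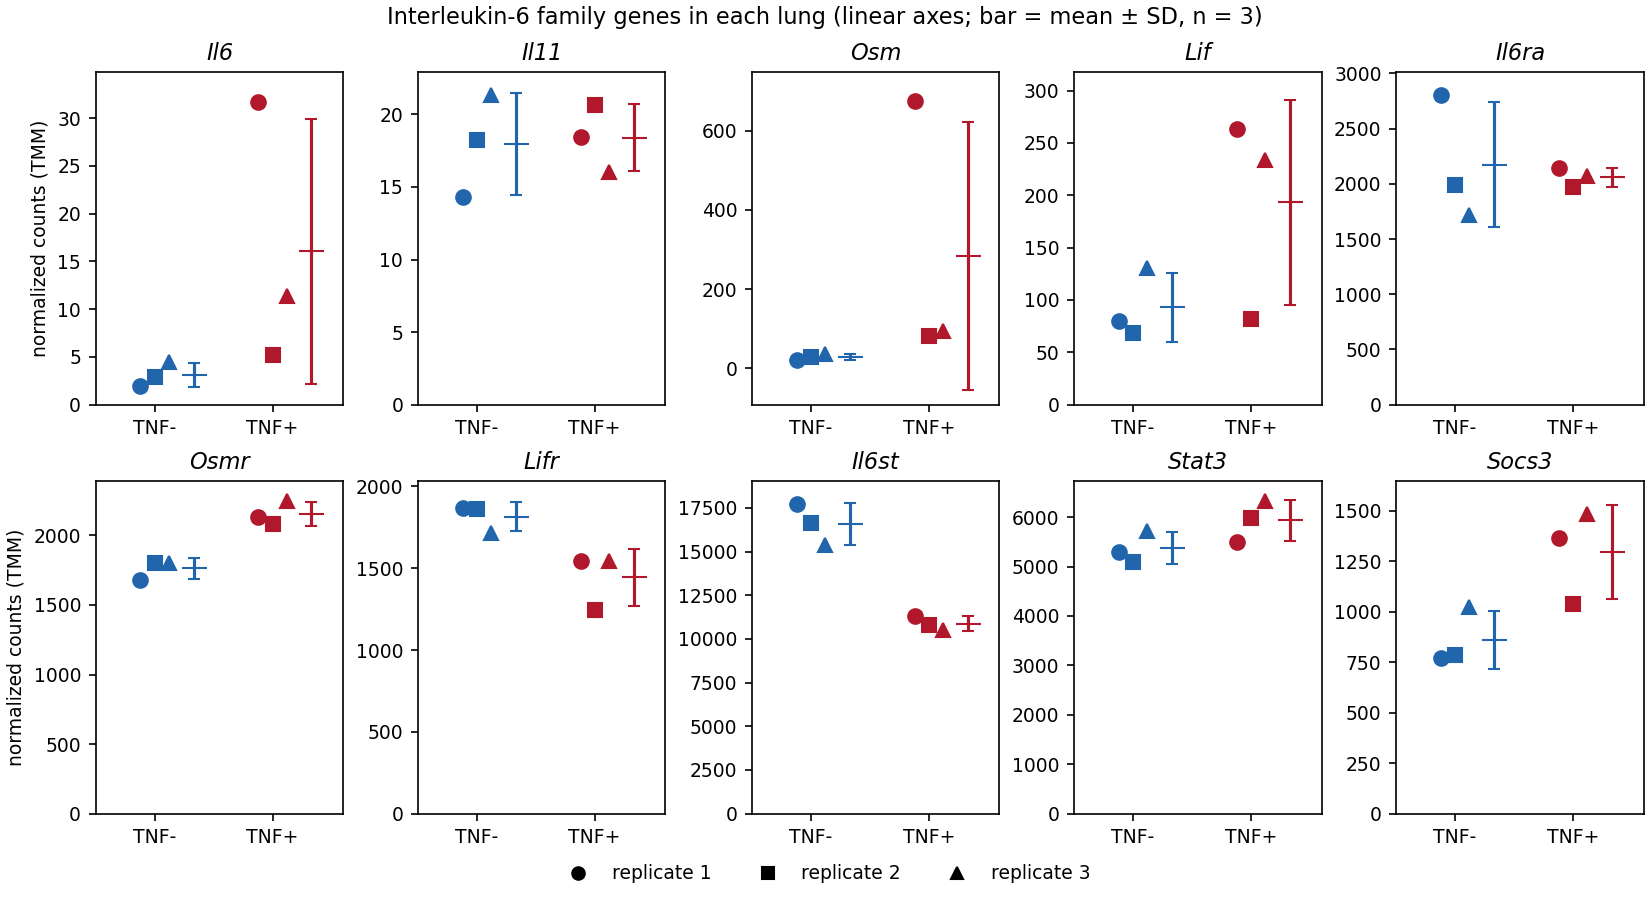
Normalized counts (linear axes) of the 10 members in each of the 3 TNF- (blue) and 3 TNF+ (red) lungs, with the mean and SD of each group beside the points and a marker shape for each replicate number. Il6st and Lifr are lower and Osmr and Socs3 higher in every TNF+ lung, and Osm is high in TNF+ replicate 1 (675) above the other TNF+ lungs (80.7 and 95.3).

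Among the ligands, Osm showed the largest difference. Oncostatin M is a cytokine of activated macrophages, neutrophils and T cells that acts mainly on stromal and endothelial cells. Osm (ENSMUSG00000058755.3, chromosome 11 of mm10, 4236420 to 4241026, plus strand) had 675, 80.7 and 95.3 normalized counts in TNF+ lungs and 22.0, 29.7 and 36.4 in TNF- lungs. The groups did not overlap, but the value of TNF+ replicate 1 was far above those of the other TNF+ lungs. The fitted log2 fold change of Osm came to 3.25 (SE 0.84, adjusted p = 0.0134). Without TNF+ replicate 1 it was 1.54 (adjusted p = 0.00676), and without TNF- replicate 1 as well it was 1.37 (adjusted p = 0.0165). Osm passed the threshold in each of the 6 fits that left out 1 lung. With limma-voom, which models log counts, it did not (log2 fold change 2.45, adjusted p = 0.0653). In bulk RNA, more cells of a type and more RNA per cell cannot be told apart. The 8 macrophage and monocyte markers all rose, from a summed 390 to 422 CPM in TNF- lungs to 3719 to 5671 CPM in TNF+ lungs, with no marker at 0. Of 5 neutrophil markers, 4 fell (S100a8, S100a9, Retnlg and Cxcr2) and Csf3r rose, and their summed level was 62.5 to 96.5 CPM in TNF+ lungs against 84.6 to 145 CPM in TNF- lungs. Of 4 T cell markers, 3 rose, with a summed 60.3 to 74.4 CPM against 27.1 to 51.6 CPM. The part of these cells in the rise of Osm was not tested.

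Il6 was close to the limit of detection. Interleukin-6 is the founding cytokine of the family and a main inducer of the acute phase response. Il6 (ENSMUSG00000025746.11, chromosome 5 of mm10, 30013114 to 30019981, plus strand) had 24, 5 and 12 raw counts in TNF+ lungs and 2, 3 and 5 in TNF- lungs. The raw counts touched at 5, and the normalized counts did not overlap, at 31.6, 5.17 and 11.3 against 1.91, 2.88 and 4.44. Summed over lungs, 41 counts stood against 10, a depth-scaled ratio of 4.73 (2.24 on the log2 scale) with an exact 95% interval of 2.33 to 10.6 that covers counting error only. Of these 41 counts, 24 came from TNF+ replicate 1, and without that lung the ratio was 2.70 (interval 1.17 to 6.59). Since Il6 did not pass the filter on low counts, it has no test in the main analysis. Tested without that filter, its log2 fold change was 2.29 (adjusted p = 0.0263), and with DESeq2 it was 2.33 (adjusted p = 0.0376). Of the 4 fits with 1 lung left out in which Il6 passed the filter, 1 called it, the fit without TNF+ replicate 2 (adjusted p = 0.0172). Those without TNF- replicate 1, 2 or 3 gave adjusted p-values of 0.106, 0.0991 and 0.0560. Il6 entered these fits through its counts in TNF+ replicates 1 and 3, the group in which it is high, and did not enter when either was left out, so they are no independent support.

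The sequence before the start of Il6 is shown because it is the promoter among the members that held a kappaB element, the DNA element read by the NF-kB factors that TNF activates. It covers chr5:30012864-30013163 of GRCm38.p6 (plus strand, 250 bases before the RefSeq start and 50 after it), with elements in capitals, an AP-1 element (TGANTCA) at its left end and the kappaB element 44 bases before the start.
Il6: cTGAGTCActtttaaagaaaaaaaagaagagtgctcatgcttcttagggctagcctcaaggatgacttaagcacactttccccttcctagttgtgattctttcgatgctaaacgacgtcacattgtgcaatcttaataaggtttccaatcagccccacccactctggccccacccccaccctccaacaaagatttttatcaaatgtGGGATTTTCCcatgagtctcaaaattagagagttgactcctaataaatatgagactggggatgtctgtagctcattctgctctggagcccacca
The kappaB element, searched on both strands, occurred in 4.51% of 32851 RefSeq windows of the same length, and the AP-1 element in 7.81%. RefSeq promoters matched 9 of the 10 members, all but Osm. Beside Il6, Lif, Osmr and the downstream of the 2 Il11 windows held an AP-1 element. These matches describe letters and are not sites shown to be bound.

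Lif, the gene of leukemia inhibitory factor, lies 16.53 kb downstream of Osm on the same strand (ENSMUSG00000034394.14, chromosome 11, 4257557 to 4272514). It had 264, 81.7 and 234 normalized counts in TNF+ lungs against 80.3, 68.0 and 131 in TNF- lungs. TNF+ replicate 2 lay within the TNF- range, so the groups overlapped. For Lif the fitted log2 fold change came to 1.05 (SE 0.43, 95% interval 0.05 to 2.05, adjusted p = 0.0787). The call depended on the setting, since Lif passed with DESeq2 (adjusted p = 0.0231), without a filter on low counts (0.0385) and without TNF+ replicate 2 (0.0094). Without TNF+ replicate 1 its log2 fold change was 0.73 (adjusted p = 0.252), and without TNF- replicate 1 as well it was 0.63 (adjusted p = 0.382). The difference of Osm and Lif in log2 CPM was 1.35, -0.02 and -1.28 in TNF+ lungs and -1.78, -1.14 and -1.79 in TNF- lungs. The groups overlapped (difference of means 1.59, exact two-sided permutation test, p = 0.2).

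Il11, which encodes interleukin-11, a cytokine of stromal cells, was low in both groups. Il11 (ENSMUSG00000004371.15, chromosome 7, 4772373 to 4782859, minus strand) had 14, 20 and 17 raw counts in TNF+ lungs and 15, 19 and 24 in TNF- lungs. No order by genotype was seen, and the fitted change on the log2 scale was 0.03 with a 95% interval of -0.69 to 0.75 (adjusted p = 0.944), and its sign turned with DESeq2 and with total counts as the only scaling. At this depth, changes in Il11 smaller than that interval were not detectable.

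Among the receptors, the shared chain fell. Il6st (ENSMUSG00000021756.12, chromosome 13, 112464070 to 112510086, plus strand) had 11339, 10799 and 10483 normalized counts in TNF+ lungs and 17726, 16621 and 15367 in TNF- lungs. The highest TNF+ lung was below the lowest TNF- lung, and the spread within each group was small. The mean was 10874 ± 433 (SD, n = 3) against 16572 ± 1180 (SD, n = 3), 1.52-fold higher in TNF- lungs, and the fitted log2 fold change came to -0.61 (SE 0.11, adjusted p = 0.0026). Il6st passed the threshold under each of the 14 alternatives run for single genes, with log2 fold changes between -0.67 without TNF+ replicate 1 (adjusted p = 0.00834) and -0.58 without TNF- replicate 1 (0.00933). Nearly all cells carry gp130, and marker lists moved both ways beside Il6st. The summed level of 4 endothelial markers, all of them lower, was 1065 to 1241 CPM in TNF+ lungs against 2010 to 2470 CPM in TNF- lungs. That of 5 fibroblast markers, of which 4 fell, was 825 to 867 CPM against 1164 to 1828 CPM, and that of 5 epithelial markers, of which 4 fell, was 14516 to 19052 CPM against 29160 to 36702 CPM. No marker of these lists was at 0 in any lung, while the macrophage list above and 3 of 4 markers each of T cells and of B and plasma cells rose. The part of these cells in the fall of Il6st was not tested.

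The oncostatin M and leukemia inhibitory factor receptor chains, which lie 215.64 kb apart on chromosome 15, moved in opposite directions. Osmr (ENSMUSG00000022146.12, 6813577 to 6874969, minus strand), which pairs with gp130 to form the oncostatin M receptor, had 2133, 2081 and 2247 normalized counts in TNF+ lungs and 1678, 1804 and 1805 in TNF- lungs. Lifr (ENSMUSG00000054263.12, 7090614 to 7197489, plus strand), the chain for leukemia inhibitory factor, had 1545, 1244 and 1543 against 1866, 1864 and 1715. Neither gene overlapped between the groups. On the log2 scale, Osmr rose by 0.29 (SE 0.08, adjusted p = 0.0214), and the value for Lifr was -0.33 (SE 0.11, adjusted p = 0.0356). Both were small and near the threshold. Osmr was called in 5 of 14 alternatives and Lifr in 8. Osmr lost the call without TNF+ replicate 1 (adjusted p = 0.0834), TNF+ replicate 3 (0.0752), TNF- replicate 1 (0.112) or TNF- replicate 2 (0.0558). Lifr kept it without TNF+ replicate 1 (-0.42 on the log2 scale, adjusted p = 0.0394), and lost it without TNF+ replicate 2 (0.0970), TNF- replicate 1 (0.0821) or TNF- replicate 2 (0.0995). Neither gene changed sign.

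Il6ra, the private subunit for interleukin-6, showed no difference beyond its spread. Il6ra (ENSMUSG00000027947.11, chromosome 3, 89864059 to 89913196, minus strand) had 2141, 1971 and 2069 normalized counts in TNF+ lungs and 2807, 1986 and 1721 in TNF- lungs. The TNF+ lungs lay inside the range of the TNF- lungs. The log2 fold change was -0.08 with a 95% interval of -0.46 to 0.31 (adjusted p = 0.738), and it turned to 0.13 without TNF- replicate 1. Of its exon length, 2.8% overlaps the antisense gene Gm42809, and the strand setting of the counting is not given in the sources used here.

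**Figure D2:**
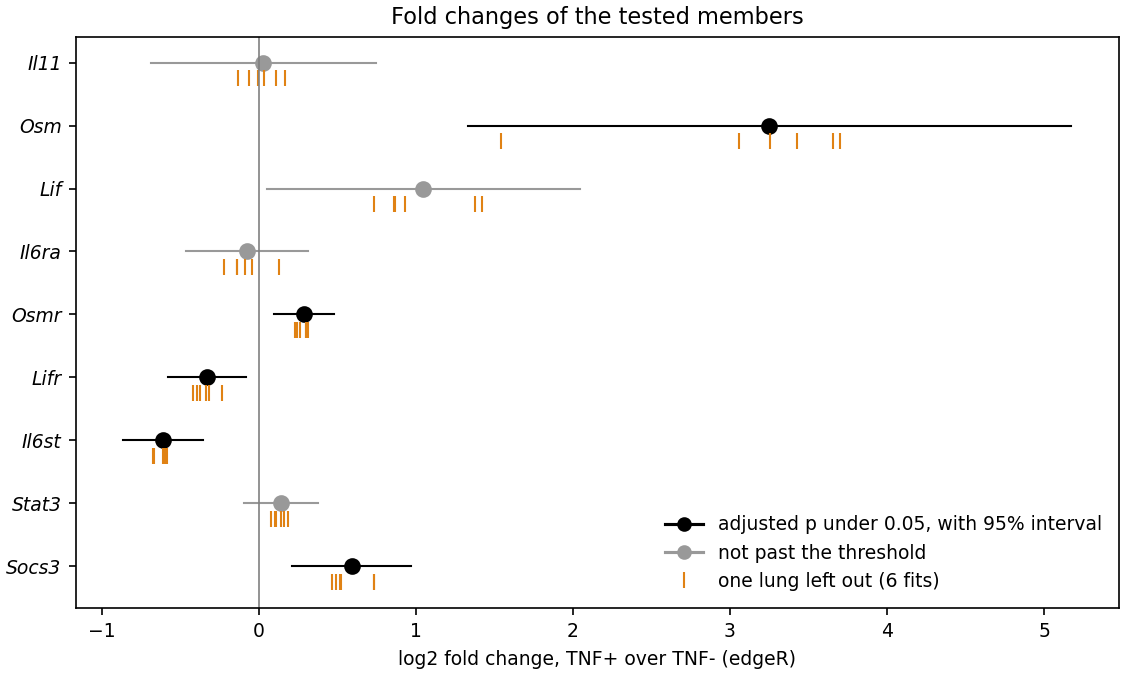
Log2 fold changes (TNF+ over TNF-, edgeR) of the 9 tested members with their 95% intervals, in black where the adjusted p is under 0.05 and grey otherwise, and orange ticks for the 6 fits that each left out 1 lung. Il6st stays between -0.67 and -0.58 in these fits, while Osm falls to 1.54 without TNF+ replicate 1.

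To set the receptor chains against each other without scaling between lungs, differences of log2 CPM were taken within each lung. In CPM, which is not divided by exon length, Osmr and Lifr were near parity in TNF- lungs, with a difference of -0.15, -0.05 and 0.07. Per exon length, Lifr lay above Osmr in the TNF- lungs without overlap, as given further below. In CPM, Osmr exceeded Lifr in TNF+ lungs by 0.46, 0.74 and 0.54. The Osmr to Lifr ratio was therefore 1.54-fold higher in TNF+ lungs, with no overlap. Relative to the shared chain Il6st, Osmr stood 1.86-fold higher (from -3.40, -3.20 and -3.09 to -2.41, -2.37 and -2.22 in log2 CPM), Il6ra stood 1.48-fold higher and Lifr 1.21-fold higher, each without overlap. With 3 mice against 3, the exact two-sided permutation test cannot go below p = 0.1. These 4 differences reached that value (0.15 after Benjamini-Hochberg adjustment over the 6 pairs compared), so they did not pass at 0.05. The 4 differences are not independent of each other. Those against Il6st share that gene, and Osmr minus Lifr follows from Osmr minus Il6st and Lifr minus Il6st.

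**Figure D3:**
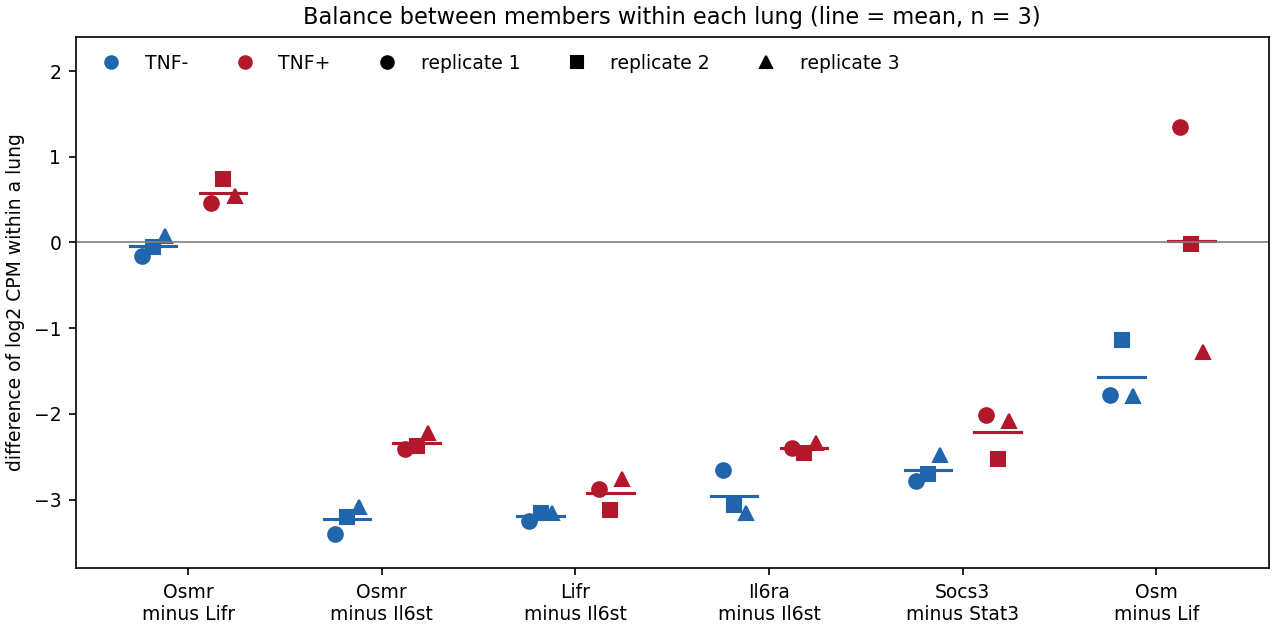
Difference of log2 CPM between the genes of each pair within each lung, for 3 TNF- (blue) and 3 TNF+ (red) lungs, with a line at the group mean. The lungs separate for the 4 receptor pairs and overlap for Socs3 minus Stat3 and Osm minus Lif.

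Downstream of the receptors, the transcript of the transcription factor differed little and that of its feedback inhibitor rose. Stat3 (ENSMUSG00000004040.16, chromosome 11, 100885098 to 100939540, minus strand) had 5504, 5974 and 6319 normalized counts in TNF+ lungs and 5294, 5097 and 5722 in TNF- lungs. The ranges overlapped, and the log2 fold change was 0.14 with a 95% interval of -0.09 to 0.38 (adjusted p = 0.279). Socs3 (ENSMUSG00000053113.3, chromosome 11, 117966079 to 117970047, minus strand) had 1366, 1036 and 1484 in TNF+ lungs and 770, 785 and 1024 in TNF- lungs. The groups did not overlap, although TNF+ replicate 2 and TNF- replicate 3 were close. The mean of Socs3 was 1.51-fold higher in TNF+ lungs, or 0.59 on the log2 scale (SE 0.17, adjusted p = 0.0191). Socs3 lost the threshold without TNF+ replicate 1 (adjusted p = 0.0755), TNF+ replicate 3 (0.0815), TNF- replicate 1 (0.0778) or TNF- replicate 2 (0.0726), with log2 fold changes of 0.47 to 0.52 in those fits. Measured within each lung, Socs3 minus Stat3 was -2.01, -2.53 and -2.09 in TNF+ lungs and -2.78, -2.70 and -2.48 in TNF- lungs, which overlapped (exact permutation test, p = 0.2).

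Socs3 held the STAT element that was found among the members' promoters, and its sequence is shown for that reason. The window is chr11:117969317-117969616 of GRCm38.p6, read on the minus strand, with the STAT element (TTCNNNGAA, which reads alike on both strands) in capitals 154 bases before the RefSeq start used by the table.
Socs3: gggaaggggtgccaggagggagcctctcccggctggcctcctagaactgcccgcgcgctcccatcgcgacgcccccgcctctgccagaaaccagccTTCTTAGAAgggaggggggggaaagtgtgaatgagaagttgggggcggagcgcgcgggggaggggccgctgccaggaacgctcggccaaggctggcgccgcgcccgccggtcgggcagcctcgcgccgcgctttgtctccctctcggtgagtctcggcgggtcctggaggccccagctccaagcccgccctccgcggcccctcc
The longest GENCODE M21 transcript of Socs3 starts 180 bases downstream of that start, so the window does not reach it. A STAT element occurred in 8.3% of the 32851 RefSeq windows. None of the other members' windows held these letters, which says nothing about Stat3 binding elsewhere.

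Levels were compared between members per exon length (RPKM, the CPM divided by the kilobases of GENCODE M21 exons). In TNF- lungs Il6st was the most abundant, at 49.4 ± 3.52 RPKM (SD, n = 3), followed by Stat3 at 18.7 ± 1.11, Socs3 at 9.84 ± 1.63, Il6ra at 8.31 ± 2.17, Lifr at 5.57 ± 0.266 and Osmr at 4.81 ± 0.199. The ligands were lower, with Lif at 0.707 ± 0.252, Osm at 0.428 ± 0.105, Il11 at 0.285 ± 0.056 and Il6 at 0.042 ± 0.017. The ranges of neighbours overlapped for Socs3 and Il6ra, for Lif and Osm, and for Osm and Il11, and not for the other neighbours. In TNF+ lungs Il6st remained first at 32.4 ± 1.29 RPKM, ahead of Stat3 at 20.6 ± 1.42 and Socs3 at 14.8 ± 2.66. Osmr (5.88 ± 0.232) then stood above Lifr (4.43 ± 0.532), and Osm (4.13 ± 4.94) above Lif (1.47 ± 0.743), where the ranges of Osm overlapped those of both Lifr and Lif. Il6 was last by its mean, at 0.431, 0.070 and 0.154 RPKM in the TNF+ lungs, but its range overlapped that of Il11 and in TNF+ replicate 1 it lay above Il11 (0.293).

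**Figure D4:**
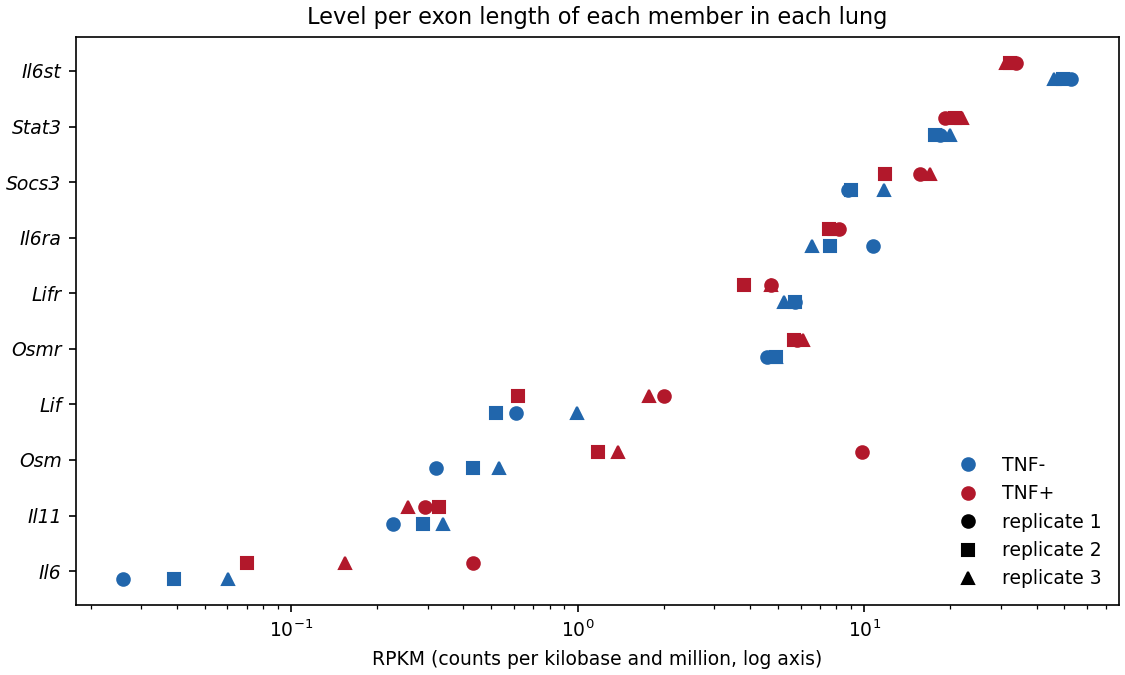
Level per exon length (RPKM, log axis) of each member in each lung, ordered by the mean of the TNF- lungs (blue) with the TNF+ lungs (red) above them. Il6st is the highest in both groups, the 4 ligand genes lie under the receptors in TNF- lungs, and Osm in TNF+ replicate 1 (9.83) reaches the level of the receptors.

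Of 12 further ligands and receptors of the family, 9 were tested and 4 were called, 3 higher and 1 lower (median log2 fold change 0.50). That is 44.4% of those tested, near the 47.4% of all genes. Ebi3, a subunit shared by interleukin-27 and interleukin-35, rose most, from 65.0, 94.9 and 76.4 to 750, 724 and 619 normalized counts (log2 fold change 3.15, SE 0.18, adjusted p = 9.74e-06). Il27, its partner in interleukin-27, had 13.2, 2.07 and 17.9 against 13.4, 2.88 and 7.11, with overlap. These were 10, 2 and 19 raw counts against 14, 3 and 8, so replicate 2 of each group was at or under the detection floor of 3. The log2 fold change of Il27 was 0.50 with a 95% interval of -1.21 to 2.22 (adjusted p = 0.606). Cntfr, the private receptor of ciliary neurotrophic factor, rose (log2 fold change 1.12), as did Il27ra (0.86), the receptor chain that pairs with gp130 for interleukin-27. The ligand gene Clcf1 (0.33, adjusted p = 0.0654) and the interleukin-11 receptor Il11ra1 (0.21, adjusted p = 0.253) did not pass. Cntf, Ctf2 and Il31 did not pass the filter. In the same lungs the macrophage and monocyte markers rose and the endothelial and epithelial markers fell, as given above. Their part in the changes of these ligands and receptors was not tested.

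Of 19 genes of signalling and feedback, 14 were called, 9 higher and 5 lower (median log2 fold change 0.26). That is 73.7%, against 47.4% of all genes. Of the receptor-bound kinases, Jak2 rose from 1410, 1381 and 1195 to 2927, 2786 and 2858 normalized counts (log2 fold change 1.10, SE 0.10, adjusted p = 6.37e-05). Jak1 (0.26, adjusted p = 0.0758) and Tyk2 (0.14, adjusted p = 0.235) did not pass. Adam17, a protease that sheds the interleukin-6 receptor and TNF from the cell surface, showed the largest rise of the list, from 1240, 1041 and 1032 to 3510, 2791 and 3149 (log2 fold change 1.51, SE 0.12, adjusted p = 4.56e-05). The feedback genes did not move one way. Socs1, which inhibits the kinases directly, rose from 61.2, 56.5 and 84.4 to 163, 105 and 182 (log2 fold change 1.16, adjusted p = 0.0086), and the phosphatase gene Ptpn2 rose (1.00), whereas Cish (-0.57), Pias3 (-0.42), an inhibitor named for Stat3, and Ptpn11 (-0.63), the phosphatase that couples gp130 to the Ras pathway, fell. Socs2 had a log2 fold change of -0.21 (adjusted p = 0.0964). Without TNF+ replicate 1 and TNF- replicate 1 the calls in this list were 8, while those over all genes went from 9096 to 6064. Macrophage and monocyte markers rose and endothelial and epithelial markers fell in the same lungs, as given above, and their part in the changes of this list was not tested.

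Of 22 genes that textbooks place among those induced through Stat3, many of them answering to other pathways as well, 14 were called, 10 higher and 4 lower (median log2 fold change 0.78). That is 63.6%, against 47.4% of all genes (24% higher and 23.4% lower). Saa3, an acute phase protein of the lung and macrophages, rose from 49.7, 45.0 and 189 to 20104, 26383 and 21211 normalized counts (log2 fold change 7.89, SE 0.61, adjusted p = 3.96e-05). Junb, a subunit of AP-1, followed with 10827, 4019 and 5220 against 1300, 1256 and 2118 (2.10, SE 0.38, adjusted p = 0.00249), and Bcl3, a nuclear partner of NF-kB, with 1649, 1429 and 1844 against 506, 416 and 671 (1.63, SE 0.18, adjusted p = 0.00024). Vegfa (-1.60), Bcl2l1 (-0.92), Il4ra (-0.37) and Bcl6 (-0.31) fell. The macrophage and monocyte list (8 of 8 markers) rose and the endothelial (4 of 4) and epithelial (4 of 5) lists fell in the same lungs, with the summed levels given above, and their part in these changes was not tested. The Stat3 transcript itself did not pass the test, and phosphorylation of the protein was not measured.

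**Figure D5:**
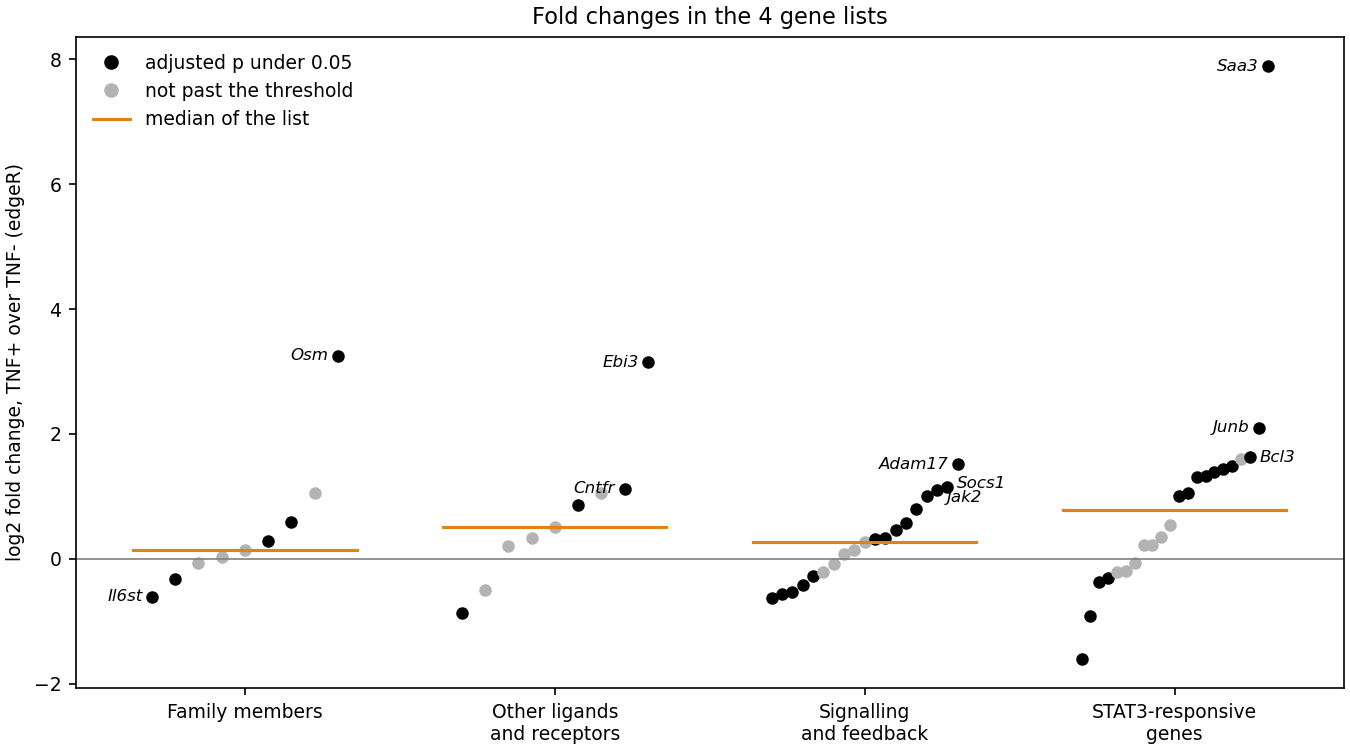
Log2 fold changes (TNF+ over TNF-, edgeR) of the tested genes in the family and in the 3 further lists, each point a gene, black where the adjusted p is under 0.05 and grey otherwise, with the list's median in orange. The medians are 0.14, 0.50, 0.26 and 0.78, and Osm (3.25), Ebi3 (3.15), Adam17 (1.51) and Saa3 (7.89) are the highest in their lists.

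The genes whose pattern over the 6 lungs lay nearest to a member, by the root mean square difference of centred log2 CPM, were Nup93, Gimap5 and Gm7308 for Osmr (0.02 each) and Gm6851, Gm5150 and Gm14845 for Socs3 (0.06, 0.06 and 0.08). For Il6 no nearest gene was taken, since it was not among the tested genes.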

How the data were processed

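Raw counts of reads per gene symbol were deposited by the authors, without normalization, for 6 lungs. Per the labels, reads of stranded poly(A) libraries were processed with Trimmomatic (version 0.36; the paper's text names another), STAR (version 2.5.2b) and featureCounts on GRCm38.p5 (mm10). The gene annotation and the strand setting of the counting are not given in the sources used here. Coordinates and exon lengths were taken from GENCODE M21 (mm10), and promoters from RefSeq (GRCm38.p6, the same chromosome coordinates).

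Columns were matched to mice by genotype and number. In R (version 4.3.3), edgeR (version 4.0.16) kept 19199 genes by filterByExpr, scaled the libraries by TMM and tested genotype, without covariates, by quasi-likelihood, and p-values were adjusted by Benjamini-Hochberg with a threshold of 0.05. SEs were derived from the F statistic (absolute log2 fold change over root F), and 95% intervals from them and the degrees of freedom of the test. Log2 CPM used a prior count of 2. Differences within lungs were compared by exact permutation over 20 arrangements. No replicate pair of a genotype agreed within sampling noise (chi-square per degree of freedom 53.7 to 140). The total counts per lung ran from 25396923 to 32529408, and the detection floor was 3 counts in each. Alternatives were DESeq2 (version 1.42.0), limma-voom (limma version 3.58.1), other scalings and filters, the replicate number as a block, lungs left out and a minimum fold change. The scripts were tested on simulated counts.

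The members and gene lists were chosen with earlier results of these data known. The genes named are the 10 members, in each further list the 3 genes with the largest called change (mean log2 CPM of at least 1, groups that do not overlap) and a set of named receptors, kinases and feedback genes. One gene that this rule names is not reported here. Il27, Ptpn2, Cish, Pias3, Ptpn11, Socs2, Vegfa, Bcl2l1, Il4ra, Bcl6, Fos, Nfil3 and Pim1 were named after their values were seen, as were Gm42418 and Krt4 from earlier results. The single-cell data of the study were not analysed here.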

Additional observations from a re-analysis of the deposited data

How the results depend on the processing

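Il6st kept its direction and its call under each of the 14 alternatives, and Osm under 13 of them. The number of members called was 5 in the main analysis, 6 with DESeq2, 4 with limma-voom, 3 with total counts as the only scaling, 1 (Osm) with a log2 fold change of at least 1, 2 (Osm and Il6st) without TNF+ replicate 1 and TNF- replicate 1 together, and between 2 and 6 when 1 lung was left out. Over all genes the calls were 9096 in the main analysis, 9159 with DESeq2, 9032 with limma-voom and 8085 with total counts only. They ran from 7347 to 9164 when 1 lung was left out. With a log2 fold change of at least 1 the calls were 4320 over all genes, 2 among the other ligands and receptors and 4 among the signalling genes. Without a fold minimum, the signalling calls were 14 in the main analysis and 8 without replicate 1 of both genotypes, and those over all genes 9096 and 6064. The Stat3-responsive calls, 14 in the main analysis, were 11 with the fold minimum, 12 without both replicates 1 and 11 to 16 over the alternatives run. The cause of these losses was not tested, apart from the minimum fold change, which removes small changes by construction. The log2 fold change of Il11 turned sign with DESeq2 (-3.1e-06), with total counts (-8.6e-05), without both replicates 1 (-0.15) and in 3 of the fits with 1 lung left out (-0.13 to 0.17 over the 6 fits), and that of Il6ra turned without TNF- replicate 1 (0.13, with a range of -0.22 to 0.13 over the 6 fits) and without both replicates 1 (0.085). Neither gene was called in any fit. Same-numbered mice are different animals, and their deviations from the group means were not positively correlated (-0.24 to -0.0043 over the 3 pairs). Under a replicate block on these numbers, 3 members were called, since Osmr (adjusted p = 0.0601) and Lifr (0.0705) did not pass. Over all genes the calls under this block were 7686. The within-lung differences kept their direction under each alternative tried. The Il6 ratio of summed counts ran from 2.70 to 6.37 with 1 lung left out, an alternative chosen after seeing the data. Il6 and Il11, at 2 to 24 counts per lung, are limited by depth.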

Other observations

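TNF+ replicate 1, the lung with the highest Osm, Il6 and Lif, also had the highest normalized count of 8 of the 22 Stat3-responsive genes, while TNF+ replicates 2 and 3 were highest for 5 and 3 genes, and the TNF- replicates for 1, 2 and 3. The same lung was highest for 1 of 9 other ligands and receptors and for 5 of 19 signalling genes. Over the 19199 genes tested, TNF+ replicates 1, 2 and 3 were highest for 16.4%, 20.3% and 15%. Those genes moved both ways, whereas 10 of the 14 calls among the Stat3-responsive genes were higher, so these shares are not like for like. TNF+ replicate 1 is the library in which Gm42418 held 5.22% of the counts. These counts were made after the values were seen. The immediate early gene Fos had 4616 normalized counts there and 794 and 1114 in the other TNF+ lungs, against 484, 620 and 1055 in TNF- lungs, and did not pass the threshold (adjusted p = 0.0681). Nfil3, a transcription factor induced by several cytokines, had 694 there against 239 and 249, and the kinase gene Pim1 had 3083 against 1417 and 1243. Saa3 was not highest in that lung, with 20104 against 26383 and 21211, and neither was Socs3, with 1366 against 1036 and 1484.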
